A study of Rattus norvegicus with 120 samples.

Results

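Kidney RNA of rats given cyclosporine (CsA) at 25 mg/kg a day for 28 days was compared directly with that of rats given CsA at 2.5 mg/kg a day for 28 days. The comparison takes 9 of the 120 arrays of the series, 4 at the higher and 5 at the lower dose, chosen by the dose and the number of doses in their labels. All rats were male Sprague-Dawley rats, 5 to 7 weeks old before treatment, injected intraperitoneally once a day, and each array holds whole-kidney RNA of 1 rat taken on the day after the last dose. The groups set beside them are 5 rats given olive oil (vehicle) for 28 days, CsA rats at the same doses after 1, 7 and 14 days (4 in each group), and 28-day rats given FK506 (tacrolimus) at 6 mg/kg (5 rats) or 0.6 mg/kg (6 rats) and Rapa (rapamycin) at 10 or 1 mg/kg (6 rats each). The series carries no gene manipulation, and the labels name no batch, scan day or pooled animals.

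Cyclosporine is a cyclic peptide that, bound to cyclophilin, blocks calcineurin, the phosphatase that lets NFAT transcription factors enter the nucleus of activated T cells. The kidney is its best known site of toxicity: it narrows the afferent arteriole, injures tubular cells and, with long use, is followed by interstitial scarring, and it disturbs the handling of magnesium, calcium and potassium by the distal nephron. Injured proximal tubule cells are known to give up transporters and metabolic enzymes and to switch on secreted and adhesion proteins that serve as injury markers.

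Levels are given as normalised log2(intensity + 16), on which a step of 1 is 2-fold, and differences as the CsA 25 mg/kg mean minus the CsA 2.5 mg/kg mean with the standard error (SE) of the model. A gene was called at a Benjamini-Hochberg adjusted p under 0.05 in limma's moderated test over 10663 genes. The offset of 16 understates the change of dim genes, and the deposited table gives no detection calls, so a low level may lie at background. Where 2 levels are from different genes they are not compared, since probe sets differ in brightness.

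Both arrays that the choice of samples names as unusual stood apart. All 5273 zeros of the table lay in replicate 3 of CsA 25 mg/kg, where they made up 17.0% of the values; after normalization they sit at 4.34. On the other 3 arrays of the group the same probe sets had a median level of 5.53, but 500 of them exceeded 8 and 56 exceeded 10. Over its other probe sets replicate 3 correlated with its 3 group mates at 0.977 to 0.981, a range like that among the mates (0.976 to 0.981). In the CsA 2.5 mg/kg group replicate 2 had an albumin (Alb) level of 13.11, against up to 7.96 in its 4 mates and 4.85 to 6.26 in the CsA 25 mg/kg group. The ratio of 3-prime to 5-prime Gapdh probe sets, a sign of RNA quality, was 0.36 to 0.43 at CsA 25 mg/kg and 0.40 to 0.50 at CsA 2.5 mg/kg on the log2 scale. Umod, the most abundant protein made by the thick ascending limb, was at 13.33 to 13.63 and 13.66 to 13.79, so that all 9 arrays carried the kidney label's marker at a high level.

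The higher dose differed from the lower in 1966 of 10663 genes (18.4%), of which 933 were higher (8.75%) and 1033 lower (9.69%). Fitted on these 9 arrays alone, with their own estimate of the spread, the numbers were 293 and 135. The falls rest in part on the zeros. Of the 1033 genes called lower, 388 were listed at 0 on replicate 3, and 37 of these were still called with the zeros taken as missing values, a setting chosen after seeing the data. With that setting 1533 genes were called (14.4%), of which 902 were higher (8.46%) and 631 lower (5.92%). Without replicate 3 the total was 1351 (12.7%), with 688 (6.45%) higher and 663 (6.22%) lower, and without the low-dose array with high Alb as well they were 580 (5.44%) and 578 (5.42%), of 1158 in all (10.9%). No gene called higher was listed at 0, but a zero lowers the group mean and makes such a call unlikely. Without replicate 3, 638 of the 933 genes called higher and 575 of the 1033 called lower kept their call. Beyond 2-fold, 58 genes were higher (0.544%) and 214 lower (2.01%), but 39 lower (0.366%) once the zeros were missing values. Of the calls, 47.5% were higher with all values as deposited, 50.9% without replicate 3 and 58.8% with the zeros missing. The zeros were set missing after quantile normalization. The other values of replicate 3 were thus ranked above its zeros, and its dim values may sit too high. This holds with the zeros missing, in the fit with all values, and in every level printed for replicate 3.

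**Figure D1:**
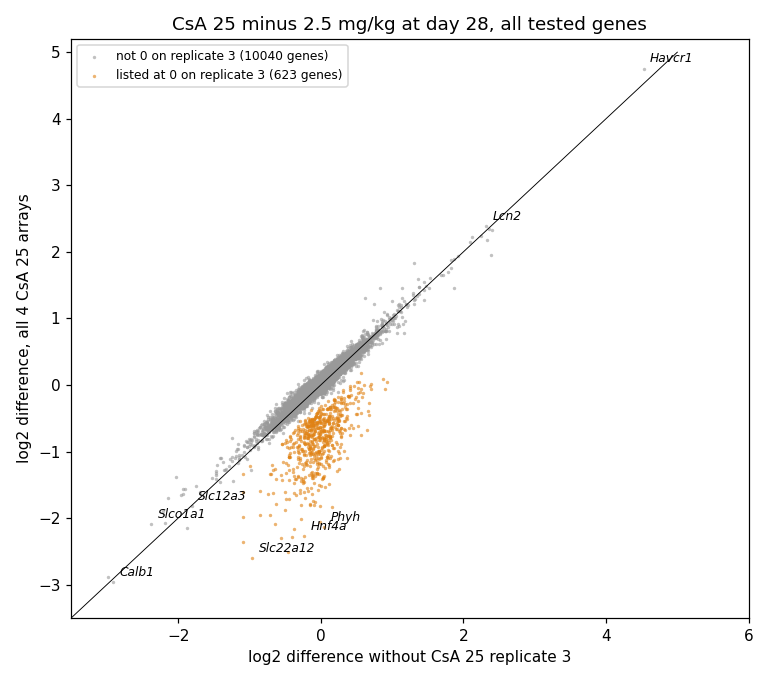
Log2 difference between CsA 25 and CsA 2.5 mg/kg at day 28 for each tested gene, with all 4 CsA 25 mg/kg arrays (vertical) against the value without replicate 3 (horizontal); the line marks equal values. The 623 genes listed at 0 on replicate 3 (orange) hang below the line, among them Hnf4a and Phyh, while Havcr1, Lcn2, Calb1 and Slc12a3 lie near it.

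The largest rise was that of Havcr1, which encodes KIM-1, a surface protein of injured proximal tubule cells. Its levels were 9.87, 9.25, 11.13 and 11.56 in the CsA 25 mg/kg rats, against 5.41, 5.76, 5.69, 6.14 and 5.50 in the CsA 2.5 mg/kg rats. The lowest high-dose rat stood more than 3 log2 units above the highest low-dose rat. The difference was 4.75 ± 0.52, or 27.0-fold (adjusted p = 1.63e-11), and 4.53 without replicate 3. The low-dose rats resembled the vehicle rats, whose Havcr1 levels were 5.22 to 6.84 (difference from vehicle -0.33, adjusted p = 1.00).

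Other secreted markers of the injured tubule followed. Lcn2, the iron-carrier binding protein NGAL, was at 8.66, 9.12, 9.41 and 9.60 in CsA 25 mg/kg rats, against 7.43, 6.08, 6.12, 7.27 and 7.12 in CsA 2.5 mg/kg rats, a difference of 2.39 ± 0.49 (adjusted p = 0.000183). Spp1, osteopontin, was at 13.75, 13.79, 13.61 and 14.08 against 11.87, 10.76, 11.39, 11.81 and 11.56, a difference of 2.33 ± 0.31 (adjusted p = 1.66e-08). Neither gene had a low-dose rat that reached the high-dose range. Clu, the secreted chaperone clusterin, was the most even of these: 12.43, 12.36, 12.38 and 12.48 in the CsA 25 mg/kg rats against 10.10, 10.01, 10.23, 10.11 and 10.42 in the CsA 2.5 mg/kg rats. Its difference was 2.24 ± 0.28 (adjusted p = 3.66e-09). Timp1, an inhibitor of matrix metalloproteinases, was at 8.55 to 9.20 at the higher dose and 6.97 to 7.47 at the lower, a difference of 1.61 ± 0.21 (adjusted p = 6.84e-09).

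Of the 32 tested members of a list of tubular injury genes, 22 rose and 2 fell, against 8.75% and 9.69% of all tested genes, and the median difference was 0.86, against 0.01 over all genes. With the zeros as missing values the count was the same, and without replicate 3 it was 21 and 2. Cldn4, a tight junction claudin of the distal nephron, rose by 2.14 ± 0.22 (adjusted p = 7.92e-13) and Atf3, a stress-induced transcription factor, by 2.23 ± 0.31 (adjusted p = 3.09e-08). The 2 members that fell, named after their values were seen, were Tff3, a trefoil peptide (-1.15 ± 0.17), and Prom1, prominin 1 (-0.65 ± 0.21). Fgb and Fgg, fibrinogen chains that the list also holds, did not pass the test: Fgb was at 6.24 to 7.66 at CsA 25 mg/kg and at 4.50 to 8.23 at CsA 2.5 mg/kg, where the array with high Alb gave the 8.23.

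**Figure D2:**
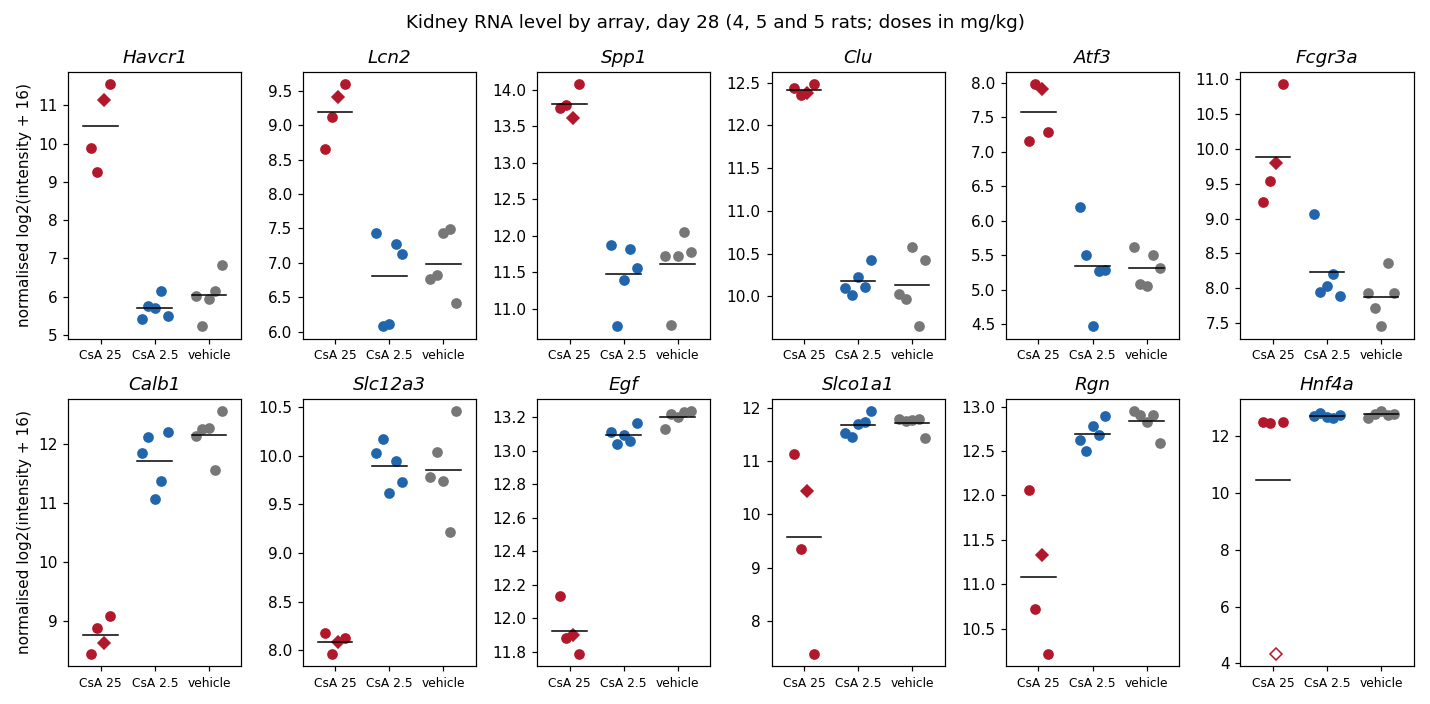
Normalised log2(intensity + 16) of 12 genes in each CsA 25 mg/kg, CsA 2.5 mg/kg and vehicle rat at day 28 (points; bars are group means; vertical scales differ and do not start at 0); the diamond is CsA 25 mg/kg replicate 3, open where the array lists 0. In 11 of the genes every CsA 25 mg/kg rat lies outside the range of the CsA 2.5 mg/kg rats with all 4 arrays measured; in Hnf4a the open point at 4.34 makes most of the gap.

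The largest rises held a second group, early response and regulatory genes. Adamts1, a secreted protease that cleaves versican, was at 10.32, 10.73, 10.50 and 10.66 in the CsA 25 mg/kg rats, against 8.01, 8.40, 7.77, 8.58 and 8.29 in the CsA 2.5 mg/kg rats (difference 2.34 ± 0.30, adjusted p = 6.84e-09). Myc, the growth-promoting transcription factor, was at 7.66, 8.44, 8.09 and 8.02 against 5.95, 6.07, 6.11, 6.31 and 6.17 (1.93 ± 0.23, adjusted p = 8.83e-10). Klf6, a zinc finger factor induced by tissue injury, differed by 1.87 ± 0.20 (adjusted p = 1.63e-11). Of 21 tested immediate early genes, which answer a signal without new protein synthesis, 12 rose and 1 fell, with a median of 0.66. These are 57.1% and 4.76%, against 8.75% and 9.69% of all tested genes. The one called lower was Jund, listed at 0 on replicate 3. Its other 3 high-dose levels were 11.48, 11.56 and 11.73, against 11.53 to 11.70 at the lower dose, and with the zero as missing its difference was -0.01. Egr1 rose by 1.22 ± 0.34 (adjusted p = 0.00513), and Fos rose by 1.01 ± 0.36 (adjusted p = 0.0393, but 0.0685 without replicate 3).

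The remaining named rises were Rasd1 (1.89), a Ras-like protein induced by dexamethasone, Pilra (1.75), an inhibitory receptor of myeloid cells, Slc34a2 (1.69), a sodium-phosphate transporter, Gpnmb (1.66), a lysosomal glycoprotein, and Fcgr3a (1.65), an activating Fc receptor. In none of them did the groups overlap, as the rule that names them requires. Slc34a2 was at 10.33, 10.10, 9.98 and 10.62 in CsA 25 mg/kg rats, against 8.55, 8.02, 8.34, 9.16 and 8.77 in CsA 2.5 mg/kg rats. Absence of overlap was not rare: 782 genes lay wholly above and 503 wholly below (7.33% and 4.72% of those tested).

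Genes of the unfolded protein response, the programme that expands the folding capacity of the endoplasmic reticulum, rose together but by little. Of 29 tested members 17 rose (58.6%, against 8.75% of all tested genes) and none fell, with a median of 0.35. The counts were the same with the zeros missing, and 15 and 0 without replicate 3. Manf, a secreted factor released under endoplasmic reticulum stress, was at 10.41, 10.87, 10.60 and 10.74 in the CsA 25 mg/kg rats, against 9.54, 10.06, 9.95, 9.50 and 9.44 in the CsA 2.5 mg/kg rats (0.96 ± 0.15, adjusted p = 1.89e-06). Dnajb9, a co-chaperone in the reticulum, differed by 0.81 ± 0.15 and Sec61b, a subunit of the translocation channel, by 0.64 ± 0.11. For Hspa5, the lumenal chaperone BiP, the groups overlapped: 12.16, 12.61, 12.42 and 12.41 against 11.81, 12.35, 11.86, 11.73 and 12.05 (0.44 ± 0.14, adjusted p = 0.0146). Xbp1, the transcription factor activated by splicing in this response, differed by 0.51 ± 0.10 (adjusted p = 0.000126). The array reads its total RNA and not the spliced form.

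Of 29 tested genes of the integrated stress response, which runs through phosphorylated eIF2-alpha and the factor ATF4, 9 rose (31.0%) and none fell (median 0.20). Of all tested genes 8.75% rose and 9.69% fell. Asns, asparagine synthetase, was at 8.17, 8.40, 8.46 and 8.43 at CsA 25 mg/kg, against 7.13, 7.02, 7.19, 7.24 and 7.12 at CsA 2.5 mg/kg (1.22 ± 0.18, adjusted p = 2.30e-07). Nupr1, a stress-induced chromatin protein, differed by 1.46 ± 0.31 (adjusted p = 0.000274) and Atf4 itself by 0.63 ± 0.10 (adjusted p = 1.37e-06). Ddit3, the factor CHOP, had a difference of 0.22 ± 0.10 (adjusted p = 0.133). Chac1, a glutathione-degrading enzyme, rose by 0.68 ± 0.17 (adjusted p = 0.00186).

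Both responses are known for promoter elements, so the promoters of the list members were searched on both strands for the ER stress element (CCAAT, 9 bases of any kind, CCACG) and for the amino acid response sequence TGATGCAAT. The windows ran from 250 bases before to 50 after the RefSeq start of each gene (GRCr8). The ER stress element was in 7 of 22 promoters of unfolded protein response members (31.8%), against 15 of 8909 promoters of tested genes (0.168%) and 21 of all 27457 (0.0765%). The amino acid response sequence was in 2 of 26 promoters of the integrated stress list (7.69%), against 12 of 8909 (0.135%) and 53 of 27457 (0.193%). None of these 9 windows held both. Lists of this kind are built from genes known to answer the stress, so the shares describe the lists and not this experiment. The matches of the members that rose are shown here, 5' to 3' on the strand of the gene, with the matched letters in capitals; a match that reads CGTGG first is the element on the other strand, and the match in Nupr1 is likewise on the other strand.

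Xbp1: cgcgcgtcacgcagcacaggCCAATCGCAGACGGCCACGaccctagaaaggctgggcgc
Hspa5: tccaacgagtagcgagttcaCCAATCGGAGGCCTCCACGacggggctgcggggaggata
Hsp90b1: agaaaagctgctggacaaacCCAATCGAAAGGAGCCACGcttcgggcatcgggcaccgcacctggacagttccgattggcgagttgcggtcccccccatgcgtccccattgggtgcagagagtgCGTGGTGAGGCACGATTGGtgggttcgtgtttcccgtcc
Canx: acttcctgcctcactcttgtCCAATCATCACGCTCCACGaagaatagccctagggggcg
Calr: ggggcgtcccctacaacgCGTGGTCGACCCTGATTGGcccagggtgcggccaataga
Nupr1: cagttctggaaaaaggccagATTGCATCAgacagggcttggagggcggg

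They lie at chr14:84604538-84604596 (plus strand) for Xbp1, chr3:38452953-38453011 (plus) for Hspa5, chr7:23012327-23012489 (minus) for Hsp90b1, chr10:35158049-35158107 (minus) for Canx, chr19:40213117-40213173 (plus) for Calr and chr1:190645929-190645977 (minus) for Nupr1. Hsp90b1, the chaperone GRP94, carried 2 matches, one on each strand, and differed by 0.41 ± 0.13 (adjusted p = 0.0169). Canx and Calr, the lectin chaperones calnexin and calreticulin, differed by 0.35 ± 0.06 and 0.31 ± 0.10 (adjusted p = 1.10e-05 and 0.0208). The 3 members with a match that did not pass the test were Dnajc3 (0.28, adjusted p = 0.0599), Creld2 (0.25, adjusted p = 0.237) and Aars1 (0.10, adjusted p = 0.431).

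Ribosomal protein genes were higher by a small amount in each high-dose rat, with list medians of 0.19, 0.26, 0.22 and 0.50 above the low-dose mean, replicate 4 the farthest. Of 39 tested members 32 rose (82.1%) and none fell, the highest share of any list examined, with a median of 0.29. Of all tested genes 8.75% rose. Rpl11 was at 12.75, 12.89, 12.75 and 13.12 in the CsA 25 mg/kg rats, against 12.46, 12.42, 12.45, 12.50 and 12.38 in the CsA 2.5 mg/kg rats, where no array reached the higher-dose range (0.44 ± 0.05, adjusted p = 2.20e-10). Rpl14 differed by 0.46 ± 0.07 and Rps15a by 0.45 ± 0.08. Probe sets for ribosomal proteins can cross-read processed pseudogenes, so single members are less certain than the count.

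Macrophage and myeloid genes were higher at the higher dose. Of 31 tested members 18 rose (58.1%, against 8.75% of all tested genes) and none fell (median 0.63). With the zeros as missing values 20 rose. Fcgr3a was at 9.24, 9.54, 9.80 and 10.93 in CsA 25 mg/kg rats, against 9.06, 7.95, 8.03, 8.20 and 7.89 in CsA 2.5 mg/kg rats, so replicate 1 of the lower dose came near the higher-dose range (1.65 ± 0.31, adjusted p = 3.34e-05). Adgre1, the macrophage surface protein F4/80, was at 7.71, 8.11, 7.97 and 9.19 against 6.83 to 7.23 (1.22 ± 0.31, adjusted p = 0.00282). Ptprc, the common leukocyte antigen CD45, differed by 1.02 ± 0.20 (adjusted p = 6.87e-05), while Cd68, a lysosomal macrophage protein, differed by 0.61 ± 0.22 (adjusted p = 0.0410, and 0.109 without replicate 3). The summed intensity of the 37 probe sets of the list ran from 15559 to 34013 in CsA 25 mg/kg rats and from 11602 to 15004 in CsA 2.5 mg/kg rats. In whole-kidney RNA more cells of a type and more RNA per cell cannot be told apart, and the same holds for every fall below.

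S100a9, a calcium-binding protein of neutrophils and monocytes, had 1 rat far above the rest. Its levels were 5.76, 7.54, 6.60 and 11.63 in the CsA 25 mg/kg group, against 5.98, 5.78, 5.34, 6.71 and 5.80 in the CsA 2.5 mg/kg group (1.96 ± 0.60, adjusted p = 0.0131). Replicate 4 of the higher dose was also the highest of its group in 26 of 29 myeloid genes with a value on every array. Of 18 chemokines 6 rose (33.3%, against 8.75% of all tested genes) and none fell (median 0.33). Cxcl13, which draws B cells, was at 9.44, 10.56, 10.12 and 12.19 in CsA 25 mg/kg rats, against 9.86 in replicate 1 and 7.73 to 8.49 in the other 4 CsA 2.5 mg/kg rats (2.18 ± 0.62, adjusted p = 0.00758), with overlap through replicate 1 of the lower dose. Ccl2, which draws monocytes, differed by 0.85 ± 0.26 (adjusted p = 0.0122, and 0.0538 without replicate 3). Of 11 tested lymphocyte genes 1 rose (9.09%), a share near the 8.75% of all tested genes.

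Matrix genes changed less. Of 36 tested members of an interstitial matrix list 5 rose and none fell (13.9% higher, against 8.75% of all tested genes; median 0.14). Without replicate 3 the count was 2 higher and none lower, and without the low-dose array with high Alb it was 1 higher and 1 lower. Fn1, fibronectin, was at 10.29, 10.13, 10.20 and 10.78 at CsA 25 mg/kg, against 9.42, 9.16, 9.67, 9.84 and 9.92 at CsA 2.5 mg/kg (0.75 ± 0.19, adjusted p = 0.00252). The fibrillar collagen genes Col1a1 (-0.04 ± 0.28) and Col3a1 (0.20 ± 0.23) did not pass the test (adjusted p = 0.941 and 0.610). Dcn, the collagen-binding proteoglycan decorin, had its lowest value, 9.27, on the low-dose array with high Alb, and its difference of 0.83 ± 0.20 was 0.46 without that array. Of 31 genes of the TGF-beta pathway 5 rose and 1 fell, or 16.1% and 3.23%, against 8.75% and 9.69% of all tested genes. Tgif1, a repressor of SMAD-driven transcription, rose by 1.33 ± 0.19 (adjusted p = 1.44e-07) and Inhbb, the inhibin beta-B subunit, by 1.27 ± 0.32 (adjusted p = 0.00201). Bmp4 fell by 0.53 ± 0.12 on the log2 scale (adjusted p = 0.000941), and Tgfb1 had a difference of 0.41 ± 0.19 (adjusted p = 0.136).

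**Figure D3:**
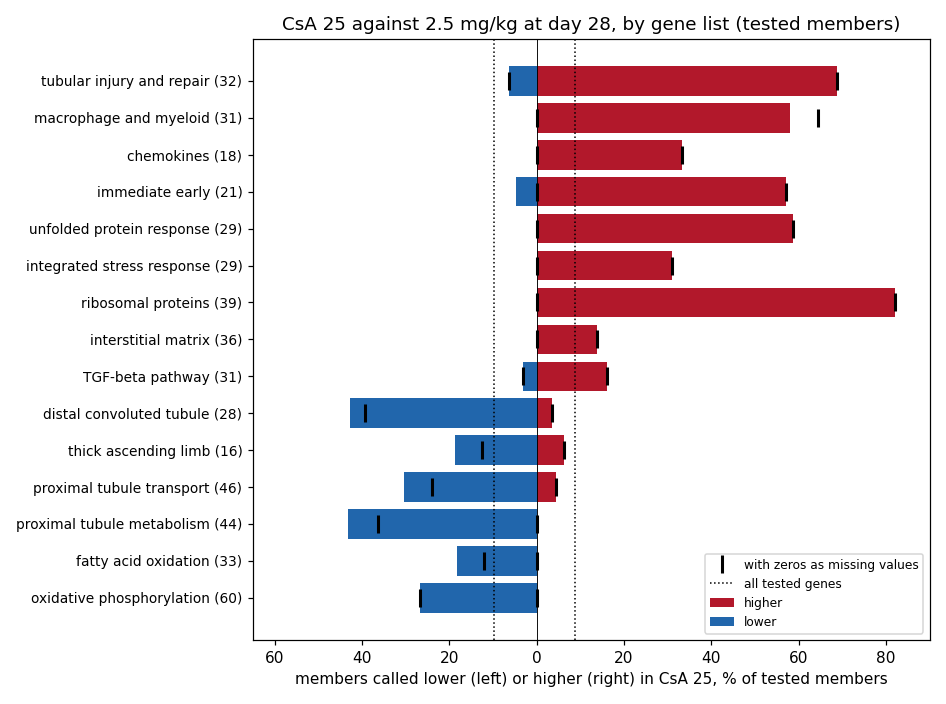
Percent of the tested members of 15 gene lists called higher (right) or lower (left) in CsA 25 mg/kg than in CsA 2.5 mg/kg kidneys at day 28; numbers of tested members are in brackets, ticks give the counts with the zeros of 1 array as missing values, and dotted lines mark all tested genes. Injury, myeloid, unfolded protein and ribosomal protein lists lie to the right and distal and proximal tubule lists to the left, and most of the tubule lists have fewer falls once zeros are missing.

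The largest fall without overlap was that of a distal tubule gene. Calb1, calbindin-D28k, the calcium buffer of distal convoluted and connecting tubule cells, was at 8.45, 8.88, 8.63 and 9.08 in the CsA 25 mg/kg rats, against 11.84, 12.11, 11.06, 11.38 and 12.19 in the CsA 2.5 mg/kg rats. The groups lay about 2 log2 units apart at their closest, and the difference was -2.96 ± 0.23 (adjusted p = 3.98e-18), or 7.76-fold lower at the higher dose. Slc12a3, the thiazide-sensitive sodium chloride cotransporter, was at 8.18, 7.96, 8.08 and 8.12 against 10.03, 10.17, 9.62, 9.95 and 9.73 (-1.81 ± 0.18, adjusted p = 8.50e-13). Egf, whose precursor is made in the distal nephron and which is known to keep magnesium channels active, was at 12.13, 11.88, 11.90 and 11.79 against 13.11, 13.04, 13.09, 13.06 and 13.16 (-1.17 ± 0.11, adjusted p = 1.94e-14). None of these 3 genes was listed at 0 on any of the 9 arrays, and leaving out replicate 3 gave -2.91, -1.81 and -1.16.

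Not all genes of the segment were called lower. Of 28 tested members of the distal convoluted tubule list 12 fell and 1 rose (median -0.20), and 11 fell with the zeros missing. The shares with all values were 42.9% lower and 3.57% higher, against 9.69% and 8.75% of all tested genes. Slc8a1, the sodium-calcium exchanger that passes calcium to the blood, was at 7.94, 8.04, 7.64 and 8.03 at CsA 25 mg/kg against 8.56 to 9.48 at CsA 2.5 mg/kg (-1.12 ± 0.18, adjusted p = 1.14e-06). S100g, calbindin-D9k, had a difference of -0.36 ± 0.17 (adjusted p = 0.128), and Trpv5, the apical calcium channel, 0.25 ± 0.19 (adjusted p = 0.399) at levels near 6. The one called higher, named after its values were seen, was Sgk1, the aldosterone- and glucocorticoid-induced kinase (0.97 ± 0.35). Without replicate 3 the list had 0 members called higher and 10 called lower. Bsnd and Emx1, called lower, were listed at 0 on replicate 3, and their differences were -0.11 and -0.44 with the zeros missing. Trpm6, a magnesium channel, and Pvalb, parvalbumin, were not among the tested genes.

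Fewer members of the neighbouring segments' lists were called. The thick ascending limb and intercalated cell lists had medians similar to that of the distal convoluted tubule list (-0.20). The principal cell list had a median of -0.06. In the thick ascending limb list 3 of 16 fell and 1 rose, with a median of -0.22. Bsnd, listed at 0 on replicate 3 and also in the distal convoluted tubule list, is among these falls. With the zeros missing 2 fell. Without replicate 3 the list had 1 member lower and 0 higher, with a median of -0.12. Umod fell by 0.24 ± 0.06 on the log2 scale (adjusted p = 0.00378) and Casr, the calcium-sensing receptor, by 0.54 ± 0.20 (adjusted p = 0.0416, and 0.124 without replicate 3). Slc12a1, the loop diuretic-sensitive cotransporter, did not pass the test (adjusted p = 0.992). Of 17 principal cell genes 1 fell, the sodium channel subunit Scnn1a (-0.61 ± 0.17, adjusted p = 0.00631), while the water channel Aqp2 had a difference of 0.06 ± 0.25. Of 12 intercalated cell genes 3 fell (median -0.23), with the ammonia channel Rhcg at -0.74 ± 0.19 (adjusted p = 0.00241). With all values as deposited, the share of falls in the thick ascending limb and intercalated cell lists was above that of all tested genes (9.69%) by 1 or 2 genes.

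Transporters and enzymes were among the other falls. Of the genes given next, Slco1a1 is in the list of proximal tubule transport genes. Rgn, Gc, Hnmt and Prlr are in neither proximal tubule list, and whole-kidney RNA does not show in which cells they fell. Slco1a1, an organic anion transporter, was at 11.14, 9.35, 10.44 and 7.39 in the CsA 25 mg/kg rats, against 11.53, 11.45, 11.69, 11.73 and 11.93 in the CsA 2.5 mg/kg rats. The low-dose rats were within 0.5 of each other, whereas the high-dose rats spanned nearly 4 log2 units, with replicate 4 lowest. The difference was -2.09 ± 0.31 (adjusted p = 2.83e-07). Rgn, regucalcin, which takes part in vitamin C synthesis in rats, was at 12.06, 10.72, 11.33 and 10.22 against 12.62, 12.50, 12.79, 12.68 and 12.89 (-1.61 ± 0.20, adjusted p = 8.15e-10). Gc, the vitamin D-binding protein, was at 9.14, 8.43, 9.62 and 7.58 against 10.39 to 10.90 (-1.90 ± 0.43, adjusted p = 0.000688). Hnmt, which methylates histamine, fell by 1.28 ± 0.18 on the log2 scale, and Prlr, the prolactin receptor, by 1.40 ± 0.35.

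Of 46 proximal transport genes 14 fell (30.4%) and 2 rose (4.35%), with a median of -0.16, and 11 fell with the zeros missing. Of 44 proximal metabolism genes 19 fell (43.2%) and none rose (median -0.19), and 16 fell with the zeros missing. Of all tested genes 9.69% fell and 8.75% rose, and 5.92% fell with the zeros missing. Alpl, alkaline phosphatase, was at 9.92, 9.40, 10.03 and 9.56 against 10.61 to 10.78, and Anpep, the brush border aminopeptidase, at 11.80, 12.01, 12.16 and 11.42 against 12.25 to 13.13; both differed by -0.93, with SEs of 0.12 for Alpl and 0.25 for Anpep. The member with the widest spread was Cyp2c11, a male-specific cytochrome P450: 8.07, 4.91, 6.53 and 5.41 against 7.10, 9.12, 9.46, 8.28 and 11.62. Its groups overlapped, and the difference was -2.88 ± 0.81 (adjusted p = 0.00605). Abcc2, the export pump MRP2, went the other way: 7.56, 8.54, 8.46 and 7.21 against 6.45 to 7.24 (0.96 ± 0.25, adjusted p = 0.00253). Pck1, the gluconeogenic enzyme, had a difference of 0.01 ± 0.04.

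Mitochondrial genes fell by smaller steps. Of 60 oxidative phosphorylation genes 16 fell (26.7%, against 9.69% of all tested genes) and none rose, with a median of -0.06. Without replicate 3 the count of falls was 17. Cox5a, a cytochrome oxidase subunit, fell by 0.73 ± 0.15 on the log2 scale (adjusted p = 0.000248). Of 33 fatty acid oxidation genes 6 fell, 4 with the zeros missing, against 9.69% and 5.92% of all tested genes. Acadm, medium-chain acyl-CoA dehydrogenase, was at 12.97, 12.60, 12.83 and 12.66 at CsA 25 mg/kg, against 13.28, 13.12, 13.26, 13.28 and 13.24 at CsA 2.5 mg/kg (-0.47 ± 0.06, adjusted p = 1.16e-08). Ppargc1a, the coactivator PGC-1-alpha, was listed at 0 on replicate 3 and had a difference of -1.40 with and -0.11 without that value.

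Several of the largest falls by the naming rule changed size with the zeros. Hnf4a, a master transcription factor of the proximal tubule, was at 12.50, 12.48, 4.34 and 12.48 in the CsA 25 mg/kg rats, against 12.71, 12.81, 12.69, 12.63 and 12.74 in the CsA 2.5 mg/kg rats. Its difference was -2.27 with the zero and -0.23 without it (adjusted p = 0.00919 without replicate 3), and 2 other Hnf4a probe sets gave -0.06 and -0.45, neither called. Slc22a12, the urate transporter URAT1, was at 11.30, 11.16, 4.34 and 10.22 against 11.39 to 12.24, and its difference of -2.60 was -0.96 without the zero. Afmid, a kynurenine pathway enzyme, had -2.35 and -1.09. The other named falls at 0 on replicate 3 were Hykk, Sbspon, Rhpn1, Qng1, C13h1orf115, Xpot and Wwp1, with differences of -1.99 to -1.71 for Sbspon to Wwp1 and -2.30 for Hykk, and of -1.09 to -0.28 without the zero. In all 10 genes the other 3 high-dose rats lay below all 5 low-dose rats, as the rule requires.

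In all, 3 genes were called in opposite directions with and without replicate 3. Rps6ka3 had -1.10 with the zero and 0.26 without it, Kctd5 -0.99 and 0.33, and Irf2bpl -1.10 and 0.37. The genes whose difference moved most were Phyh, a peroxisomal hydroxylase (-2.13 and 0.05), Chpt1 (-2.05 and -0.01), Dhrs7l1 (-2.51 and -0.46), Actr2 (-1.83 and 0.15) and Hgd (-2.29 and -0.40), besides Hnf4a.

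Ranked with the zeros as missing values, the 15 largest falls without overlap were Calb1, Slco1a1, Cyp8b1, Gc, Slc12a3, Aldh1b1, Rgn, Urah, Ppfia4, Slc7a12, Prlr, Gucy1b2, Kifc1, Hnmt and Pklr. Cyp8b1, a sterol hydroxylase, was at 5.53, 5.68, 5.94 and 5.25 at CsA 25 mg/kg, against 6.69, 8.27, 8.42, 7.79 and 7.17 at CsA 2.5 mg/kg (-2.07 ± 0.38). Aldh1b1, a mitochondrial aldehyde dehydrogenase, fell by 1.66 ± 0.34 on the log2 scale, and Pklr, the pyruvate kinase of liver and kidney, by 1.26 ± 0.22. Of these genes and the 15 rises and 15 falls above, 9 have a further probe set on the array. All 13 such probe sets had the sign of the main one, and 9 were called, but the 2 further probe sets of Afmid among these 9 are also listed at 0 on replicate 3.

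The 4 high-dose rats did not respond evenly. Among the 15 falls ranked with zeros missing, replicate 4 was the lowest of the 4 in 12 and replicate 1 the highest in 8. Among the 15 rises replicate 4 was the highest in 9 and replicate 1 the lowest in 9. The median difference of the injury list from the low-dose mean was 0.53 in replicate 1, 0.79 in replicate 2, 0.89 in replicate 3 and 1.13 in replicate 4, against -0.20 to 0.11 in the 5 low-dose rats. That of the proximal metabolism list was -0.39 in replicate 4 and -0.03 to -0.19 in the other 3, against -0.05 to 0.04 at the lower dose, so replicate 1 lay within the low-dose range. The distal convoluted tubule list was even, at -0.16, -0.16, -0.12 and -0.17 against -0.04 to 0.08. The part of macrophage RNA in the size of the other changes was not tested.

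**Figure D4:**
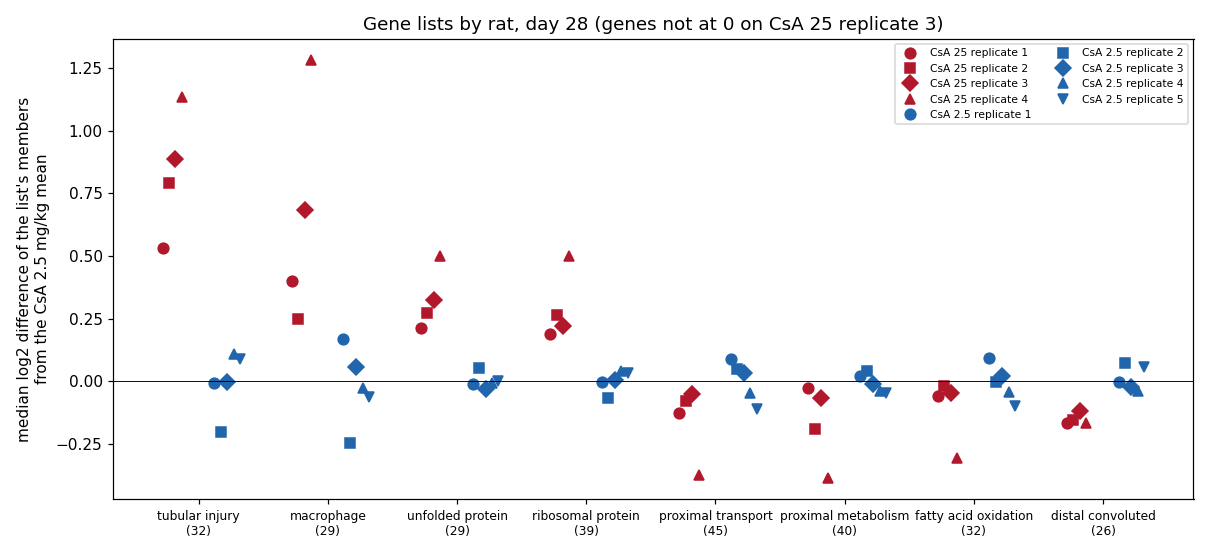
Median log2 difference of each list's members from the CsA 2.5 mg/kg mean, for each CsA 25 mg/kg (red) and CsA 2.5 mg/kg (blue) rat at day 28, over members with a value on every array (numbers in brackets). Replicate 4 of CsA 25 mg/kg stands farthest from 0 in all 8 lists, but in the distal convoluted tubule list the 4 arrays lie close together, between -0.17 and -0.12.

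The low-dose rats were also set beside the vehicle rats of day 28. No gene was called between CsA 2.5 mg/kg and vehicle in limma, and 425 genes (3.99%) had an unadjusted p under 0.05; weighting the arrays by quality called 6. For comparison CsA 25 mg/kg differed from vehicle in 2255 genes (21.1%), a comparison that shares the 4 high-dose arrays. Calb1 averaged 11.71 ± 0.49 in CsA 2.5 mg/kg rats and 12.15 ± 0.37 in vehicle rats (SD, n = 5 each; difference -0.44). Slc12a3 averaged 9.90 ± 0.23 and 9.85 ± 0.45 in the same groups. The median difference of the injury list between CsA 2.5 mg/kg and vehicle was 0.08, of the unfolded protein list -0.05 and of the proximal metabolism list -0.04. An absence of calls at n = 5 does not show that the lower dose left these genes as they were.

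The difference between the doses was followed over the days of dosing, each day with its own rats. It was called in 64 genes at day 1 (0.6%), 272 at day 7 (2.55%), 594 at day 14 (5.57%) and 1966 at day 28 (18.4%). All zeros of the table lie in 1 array of day 28, and with them missing the day 28 count was 1533 (14.4%). The groups held 4 rats each at the first 3 days. At day 7 the doses also differed in the Gapdh ratio, the sign of RNA quality. It was 0.83, 0.89, 1.28 and 0.38 at CsA 2.5 mg/kg, against 0.45, 0.50, 0.46 and 0.35 at CsA 25 mg/kg. The part of this in the day 7 calls was not tested, and changes since day 7 share those arrays. Day 1 must be read with the high-Alb arrays: 8 of 9 tested liver genes were among its rises.

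At day 7 a few distal tubule genes, Calb1 and Slc12a3 among them, were already called, while the median of the whole list was -0.07. Calb1 averaged 11.88, 9.95, 9.54 and 8.76 at CsA 25 mg/kg on days 1, 7, 14 and 28, against 12.47, 12.10, 11.85 and 11.71 at CsA 2.5 mg/kg. The dose difference of Slc12a3 was 0.13 at day 1, -2.03 at day 7, -1.12 at day 14 and -1.81 at day 28, and that at day 28 did not differ from that at day 7 by the interaction test (0.21 ± 0.27, adjusted p = 0.734). Havcr1 averaged 5.00, 7.23, 9.93 and 10.45 at CsA 25 mg/kg on the 4 days and 5.87, 5.36, 5.59 and 5.70 at CsA 2.5 mg/kg. Its dose difference was larger at day 28 than at day 7 by 2.89 ± 0.75 (adjusted p = 0.0194) and was not shown to differ from that at day 14 (0.41 ± 0.75, adjusted p = 0.906).

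Clu had a dose difference of 0.47 at day 1, -0.07 at day 7, 2.03 at day 14 and 2.24 at day 28, with a change since day 7 of 2.31 ± 0.41 (adjusted p = 0.000338). Egf fell farther apart by day: -0.23, -0.38, -0.68 and -1.17, with a change since day 7 of -0.78 ± 0.16 (adjusted p = 0.00171). Slco1a1 differed by -0.18, -0.16, -0.59 and -2.09, a change since day 7 of -1.93 ± 0.45 (adjusted p = 0.00847). In lists, injury genes called higher numbered 3, 1, 16 and 22 of 32 at days 1, 7, 14 and 28, and unfolded protein genes 0, 11, 12 and 17 of 29. Distal convoluted tubule genes called lower numbered 0, 5, 9 and 12 of 28. The share of all tested genes called higher on these days was 0.572%, 1.46%, 3.85% and 8.75%, and of those called lower 0.0281%, 1.09%, 1.72% and 9.69%. With the zeros missing the day 28 shares were 8.46% higher and 5.92% lower, and 11 distal convoluted tubule genes fell.

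Between day 28 and day 14 the dose difference itself changed in 2 genes (0.0188%), Fancd2os and Fam13a, both listed at 0 on replicate 3 and neither called with the zeros missing; 1162 genes (10.9%) had an unadjusted p under 0.05. This count was unstable: it was 276, 201 and 203 without replicate 1, 2 or 4 of CsA 25 mg/kg at day 28 and 11 without replicate 3. Against day 7 the difference changed in 374 genes (3.51%; 275 with zeros missing), and without replicate 1 of that group it changed in 755. Against day 1 it changed in 466 genes (4.37%), and in 101 without the 4 CsA arrays with an Alb level above 12. That setting leaves 2 of the 4 CsA 25 mg/kg rats at day 1 and takes 1 CsA 2.5 mg/kg rat each from days 14 and 28, so it also compares fewer rats. The 4 largest negative changes since day 1 were the liver-expressed genes Serpina1 (-4.51), Ttr (-4.11), Apob (-3.85) and Apoc2 (-3.75, listed at 0 on replicate 3). Without those arrays they were 0.41, 0.56, -0.55 and -1.85, none of them called, whereas Havcr1 went on to differ by 5.50 and Calb1 by -2.21.

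**Figure D5:**
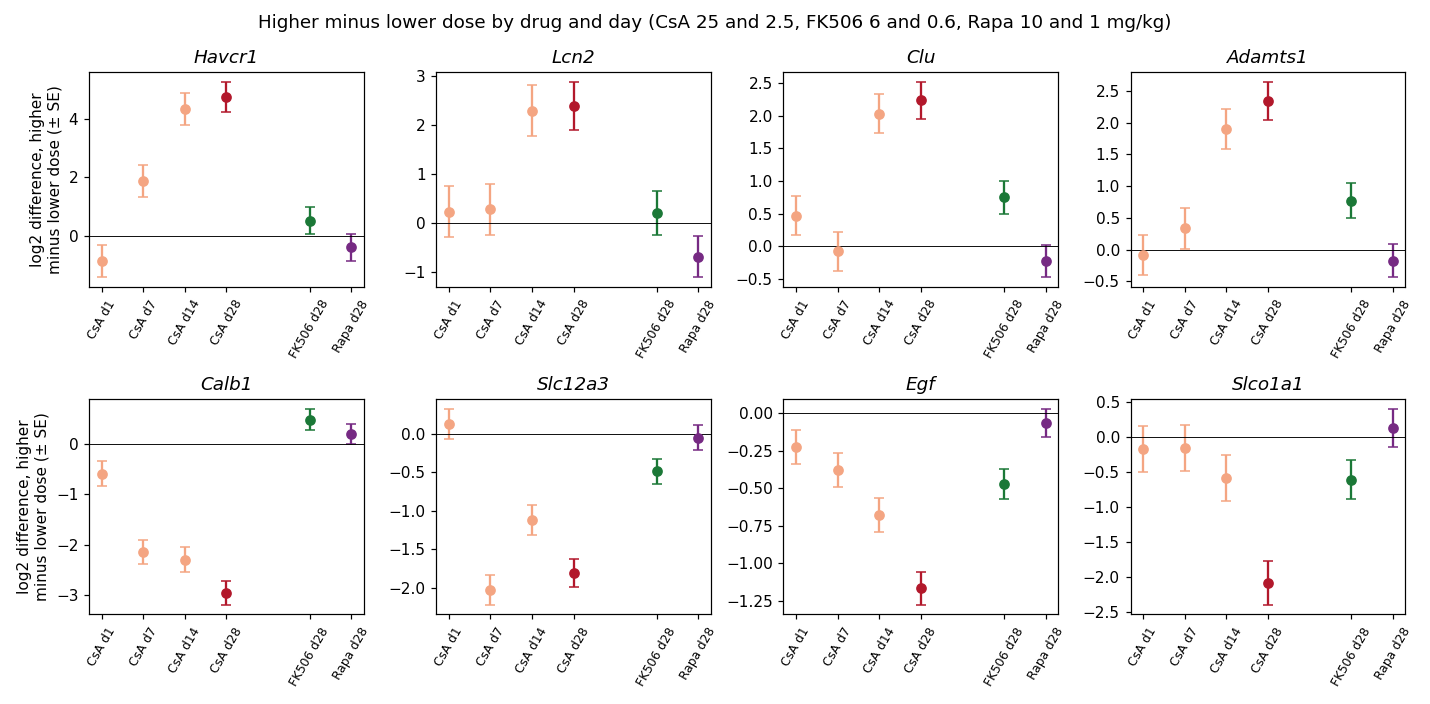
Log2 difference of the higher minus the lower dose (± SE of the model) for CsA at days 1, 7, 14 and 28 and for FK506 and Rapa at day 28, in 8 genes (vertical scales differ). At day 28 the CsA difference of Calb1 was -2.96, that of FK506 0.48 and that of Rapa 0.20; Slc12a3 already differed by -2.03 at day 7, while Clu differed by -0.07 then and by 2.03 at day 14.

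The same contrast of a 10-fold higher with a lower dose was made at day 28 for FK506, the other calcineurin inhibitor, and for Rapa, which inhibits mTOR. The doses in mg/kg differ between drugs. FK506 6 mg/kg differed from FK506 0.6 mg/kg in 173 genes (1.62%) and Rapa 10 mg/kg from Rapa 1 mg/kg in 13 (0.122%). The CsA dose difference was unlike that of FK506 in 267 genes (2.5%, or 160 genes with the zeros missing). It was unlike that of Rapa in 796 (7.47%, or 537 genes). Before normalization the hybridization controls averaged 7.50 to 10.42 at FK506 6 mg/kg and 9.80 to 10.85 at FK506 0.6 mg/kg. They were at 10.44 to 10.83 and 8.14 to 10.85 at Rapa 10 and 1 mg/kg, against 10.51 to 11.05 on the CsA arrays. The part of this in the drug contrasts was not tested. The number for FK506 was 656, 464 and 475 without replicate 1, 2 or 4 of CsA 25 mg/kg, 164 without replicate 3 and 151 without replicate 3 of CsA 2.5 mg/kg.

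For Calb1 the small FK506 dose difference went with a lower dose whose mean was itself far from that of vehicle. FK506 0.6 mg/kg was not tested against vehicle. Calb1 averaged 9.11 ± 0.34 at FK506 6 mg/kg and 8.63 ± 0.22 at FK506 0.6 mg/kg (SD, n = 5 and 6), against 12.15 ± 0.37 in vehicle rats. The CsA dose difference minus the FK506 one was -3.44 ± 0.31 (adjusted p = 1.72e-14). Havcr1 averaged 9.68 ± 1.44 and 9.15 ± 0.85 in the same FK506 groups, against 10.45 ± 1.08 and 5.70 ± 0.29 at the CsA doses (interaction 4.23 ± 0.70, adjusted p = 6.22e-05). Slc7a12, an amino acid transporter, differed by -1.46 between the CsA doses and by 0.70 between the FK506 doses (interaction -2.17 ± 0.39, adjusted p = 0.000252). Manf was higher by 0.96 for CsA and by 0.05 for FK506 (interaction 0.91 ± 0.21, adjusted p = 0.00635). The unfolded protein list held no gene called in either direction between the FK506 doses, where 0.61% of all tested genes were higher and 1.01% lower. For Slc7a12, Manf and this list, the FK506 dose difference does not show how far either dose lay from vehicle, which was not tested.

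For Rapa the levels of these genes stayed near each other at both doses. Calb1 averaged 12.17 ± 0.35 at Rapa 10 mg/kg and 11.97 ± 0.39 at Rapa 1 mg/kg, and Havcr1 6.94 ± 0.81 and 7.33 ± 1.82 (SD, n = 6 each). The CsA dose difference minus the Rapa one was -3.16 ± 0.31 for Calb1, 5.15 ± 0.69 for Havcr1, 3.09 ± 0.65 for Lcn2 (adjusted p = 0.000991) and -1.42 ± 0.26 for Rgn. Manf had an interaction of 0.57 ± 0.20 (adjusted p = 0.0693) and did not pass the test.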

How the data were processed

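Kidney RNA of 120 rats was measured on Affymetrix Rat Genome 230 2.0 arrays, 1 array a rat, labelled in one cycle and read with GCOS software per the labels' protocols. The deposited table gives the authors' intensity for each of 31099 probe sets on a linear scale. How probes were summarised and scaled is not given in the sources used here, and the zeros of 1 array are as deposited. Replicates are separate rats, numbered in accession order.

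Intensities were changed to log2(intensity + 16) and quantile normalised over all 120 arrays. Of 20826 probe sets with 1 gene symbol, the one with the highest mean was kept for each of 14217 genes, and the dimmest 25% (3554 genes) were left out, leaving 10663. The probe sets with several symbols (436) or none (9780) were not used. Limma 3.58.1 in R 4.3.3 fitted 28 group means to all arrays, with Benjamini-Hochberg adjustment over the 10663 genes and residual df of 92. The fit was tested on simulated data. The number of arrays limits the precision.

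The members and gene lists were chosen with earlier results of these data known. Genes named in the text were the 15 largest rises and 15 largest falls among genes called with and without replicate 3 of CsA 25 mg/kg with no overlap of the groups, up to 6 members with the largest differences and the key members of each list, and the genes that moved most with either unusual array, between days and between drugs. Alternatives were other offsets, normalizations, filters and variance models, all probe sets, fewer arrays in the fit, and each replicate left out. The zeros as missing values, the falls ranked in that fit, and the arrays with an Alb level above 12 left out were added after seeing the data. Promoter sequences are from RefSeq (GRCr8).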

Additional observations from a re-analysis of the deposited data

Results flagged for a closer look

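Among the 144 groups of the 72 genes checked, 26 had a rat far from the rest of its group. Chance flags about 1 in 20, but some of the genes were chosen for how they moved with 1 array, so nothing is read from the number. Of the 26, 17 are the zeros of replicate 3 of CsA 25 mg/kg, all at 4.34 after normalization, in Slc22a12, Afmid, Hykk, Hnf4a, Sbspon, Rhpn1, Qng1, C13h1orf115, Xpot, Wwp1, Fancd2os, Fam13a, Hgd, Arhgap5, Rimbp2, Jund and Dhrs7l1. In the same array Slc12a1 was at 11.66, below its mates. Pilra was high at 8.86 in replicate 4 of CsA 25 mg/kg. In the CsA 2.5 mg/kg group Fcgr3a was high in replicate 1 (9.06), Ppfia4 stood apart in replicate 4 (8.41) and Arhgap5 in replicate 5 (9.70). Replicate 2, the array with high Alb, stood apart in Serpina1 (9.83), Ttr (10.15), Slc7a12 (10.89) and Csf1r (8.10).

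The dose difference at day 28 differed by the interaction test from that at day 14 in Fancd2os (-1.65, or -0.91 with the zeros missing) and Fam13a (-1.57, or -1.05). It differed from that at day 7 in S100a9 (2.95), Havcr1 (2.89), Clu (2.31) and Rasd1 (2.15), and in the zero-listed Afmid (-2.36, or -1.09 with the zeros missing), Hgd (-2.32, or -0.43), Arhgap5 (-2.23, or -1.07) and Rimbp2 (-2.21, or -0.97). It differed from that at day 1 in Havcr1 (5.62), Cldn4 (2.49), Adamts1 (2.42) and Spp1 (2.27), and in Serpina1 (-4.51), Ttr (-4.11), Apob (-3.85) and Apoc2 (-3.75).

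It differed from the FK506 dose difference in Havcr1 (4.23), Spp1 (1.94), Adamts1 (1.57), Atf3 (1.55), Calb1 (-3.44) and Slc7a12 (-2.17), and in Slc22a12 (-2.17, or -0.53 with the zeros missing) and Jund (-2.15, or -0.33). It differed from the Rapa dose difference in Havcr1 (5.15), Lcn2 (3.09), Cxcl13 (2.63), Adamts1 (2.52) and Calb1 (-3.16), and in Eri2 (-2.75, or -1.59 with the zeros missing), Slc22a12 (-2.50, or -0.86) and Dhrs7l1 (-2.41, or -0.36).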

How the results depend on the processing

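Over the alternatives, 6445 gene values kept their direction and side of the threshold, 507 lost the call, 94 gained it and 31 changed sign. The count of 1966 calls was 1157 with day 28 arrays alone, 428 with the compared groups alone and 1158 without both unusual arrays. The 933 higher calls were 293 with the compared groups alone and 580 without both arrays. The 1033 lower calls were 497 with day 28 arrays alone, 135 with the compared groups alone, 663 without replicate 3, 578 without both and 631 with zeros missing. Leaving out 1 array gave 1351 to 2109 calls, 638 to 978 higher and 663 to 1131 lower.

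The 2 changes since day 14 were 0 without quantile normalization, with an offset of 1, with no filter, with all probe sets, with fewer arrays in the fit and with zeros missing, 6 with an intensity trend, 27 with array weights, 8 without both arrays, and 0 to 276 without 1 array. The 374 since day 7 were 116 with the arrays of those days alone, 54 with the compared groups alone, 239 without both arrays and 217 to 755 without 1 array. The 466 since day 1 were 709 with array weights, 84 with the compared groups alone, 101 without the high-Alb arrays and 284 to 906 without 1 array. Those unlike FK506 (267) were 24, 21, 126 and 160 with day 28 arrays alone, the compared groups alone, both arrays left out and zeros missing, and 151 to 656 without 1 array. Those unlike Rapa (796) were 211, 86 and 419 in the first 3 of these and 535 to 1120 without 1 array. The 0 calls between CsA 2.5 mg/kg and vehicle were 6 with array weights and 0 to 0 without 1 array.

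Signs turned for 10 genes listed at 0 on replicate 3, besides Pck1 (-0.17 without quantile normalization). With zeros missing the differences were 0.051 for Phyh, 0.15 for Actr2, 0.26 for Rps6ka3, 0.33 for Kctd5, 0.37 for Irf2bpl, 0.11 for Arhgap5, 0.022 for Cacybp and 0.058 for Nsdhl. Without both arrays they were 0.035 for Chpt1, 0.15 for Actr2, 0.25 for Rps6ka3, 0.33 for Kctd5, 0.38 for Irf2bpl, 0.053 for Arhgap5, 0.019 for Jund, 0.013 for Cacybp and 0.049 for Nsdhl. With array weights they were 0.19 for Rps6ka3, 0.29 for Kctd5, 0.31 for Irf2bpl, 0.040 for Arhgap5 and 0.0057 for Nsdhl. Leaving out 1 array gave -2.90 to 0.051 for Phyh, -2.55 to 0.15 for Actr2, -1.59 to 0.26 for Rps6ka3, -1.50 to 0.33 for Kctd5, -1.65 to 0.37 for Irf2bpl, -1.47 to 0.11 for Arhgap5, -1.95 to 0.022 for Cacybp and -1.30 to 0.058 for Nsdhl, each turned by leaving out replicate 3. Apart from settings with fewer arrays or genes, the cause was not tested. No paired analysis was possible because the labels give no replicate numbers that groups share.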

Other observations

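Of 22 tested endothelial genes 2 rose (9.09%) and 5 fell (22.7%), against 8.75% and 9.69% of all tested genes, and 3 fell with the zeros missing. Klf2, a transcription factor induced by blood flow, rose by 0.81 ± 0.15 on the log2 scale, and Kdr, the VEGF receptor, fell by 0.52 ± 0.10. Further Klf2 probe sets differed by 0.22, 0.27 and 0.68, and only the last of these was called. Vwf, von Willebrand factor, fell by 1.10 ± 0.36 (adjusted p = 0.0198). Of 20 smooth muscle and renin-angiotensin genes 4 fell (20%, against 9.69% of all tested genes) and none rose. Agt, angiotensinogen, had a difference of -0.92 and Myh11, smooth muscle myosin, of -0.59. Of 21 tested complement and coagulation genes 1 rose and 1 fell (4.76% each), below the 8.75% and 9.69% of all tested genes. Proc, the anticoagulant protein C, fell by 0.96 ± 0.18 (adjusted p = 4.25e-05), and Fga, a fibrinogen chain, rose by 1.59 ± 0.43 (adjusted p = 0.00491).

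Of 22 immunophilins, the family that holds the binding proteins of the 3 drugs, 4 rose (18.2%, against 8.75% of all tested genes), while the list's median was -0.0067. They were Fkbp11 (0.81 ± 0.13), Fkbp1a (0.33), Ppib (0.28) and Fkbp2 (0.27). Rcan1, a calcineurin regulator and NFAT target, had a difference of 0.12 and did not pass the test. Among 17 clock genes 2 rose (11.8%) and 1 fell (5.88%), with a median of 0.43. These shares are near the 8.75% and 9.69% of all tested genes. Nr1d2 rose by 0.60 ± 0.20 (adjusted p = 0.0204), Bhlhe41 rose by 0.73 ± 0.27 (adjusted p = 0.0410) and Bmal1 fell by 0.98 ± 0.32 (adjusted p = 0.0211). Per1 (1.36) and Dbp (1.09) had larger differences and did not pass the test (adjusted p = 0.0876 and 0.0563). Without both unusual arrays none of the 17 was called. The labels give no hour of necropsy. Of 10 class II antigen presentation genes 3 rose (30%, against 8.75% of all tested genes), and none without replicate 3. Cdkn1a, the p53 target p21, did not pass the test.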
